A study of Mus musculus with 6 samples.

Results

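Histone gene peaks were followed in ATAC-seq data from mouse embryonic stem cells with and without Lmna. ATAC-seq uses the Tn5 transposase to cut and tag open DNA, so the reads in a peak measure chromatin accessibility. The members were all peaks of the authors' deposited table whose gene symbol had the form of an old or new histone name, which gave 34 of 65535 listed peaks. Of these, 29 peaks at 27 gene symbols belonged to histone genes, 24 on chromosome 13 and 5 on chromosome 3. The other 5 matched the pattern by name alone: 4 were at H13 on chromosome 2, whose deposited gene name is histocompatibility 13, and 1 was at H19 on chromosome 7, an imprinted noncoding RNA. None of these 5 passed an FDR of 0.05, and the results below are for the 29 histone peaks unless stated.

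Control cells (labelled WT) and Lmna knockout cells shared the E14 line with the Tg(Nkx2-5-EmGFP) reporter and gave 3 libraries each. Both were grown with serum and leukemia inhibitory factor on mouse fibroblast feeders, which were depleted by preplating. The labels give neither the number of knockout clones nor whether the libraries of a group were separate cultures. The p-values therefore rest on variation among libraries that could be purely technical. All values per peak are group means, because values per library were not used here.

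Canonical histones are the proteins around which DNA is wound: H2A, H2B, H3 and H4 form the nucleosome core and H1 binds the linker DNA. Their genes lie in clusters, have no introns, and are transcribed at a high rate when DNA is replicated in S phase, with promoters organized by the coactivator NPAT in a nuclear compartment called the histone locus body. Many H2A and H2B genes are arranged head to head and share the stretch between their starts as a common promoter. Embryonic stem cells divide fast and spend much of the cycle in S phase, when these promoters are active. Lamin A/C, the product of Lmna, is a structural protein of the nuclear lamina that contacts chromatin.

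The promoters behind the 4 histone promoter peaks that gained accessibility, and behind the promoter peak of the lowest fold (H4c9), are shown because the comparison turns on them. The first 3 run on the plus strand between the starts of a divergent H2A and H2B gene. H3c3 and H4c9 lie on the minus strand, and the 250 bases before their starts are given on their own strand. The sequences are RefSeq's, on GRCm38.p6, the assembly of mm10. Capitals mark 5 motifs, searched on both strands. They were TATAAA as the TATA box, CCAAT as the box bound by the factor NF-Y, ATTTGCAT as the octamer bound by POU factors such as Oct-1, AAACACA as the H1 box and, as E2F sites, either TTTGGCGC or its variant TTTCGCGC. None of the marked matches overlap.
H2bc13 to H2ac13, chr13:21716184-21716411: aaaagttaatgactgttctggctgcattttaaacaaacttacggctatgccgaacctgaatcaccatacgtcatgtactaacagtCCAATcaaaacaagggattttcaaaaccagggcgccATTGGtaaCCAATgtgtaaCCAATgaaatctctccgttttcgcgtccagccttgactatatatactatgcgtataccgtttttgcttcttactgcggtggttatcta
H2ac15 to H2bc15, chr13:21753913-21754075: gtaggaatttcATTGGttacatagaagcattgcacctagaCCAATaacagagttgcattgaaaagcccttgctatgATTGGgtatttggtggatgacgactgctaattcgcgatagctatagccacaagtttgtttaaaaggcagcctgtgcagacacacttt
H2ac8 to H2bc8, chr13:23571221-23571399: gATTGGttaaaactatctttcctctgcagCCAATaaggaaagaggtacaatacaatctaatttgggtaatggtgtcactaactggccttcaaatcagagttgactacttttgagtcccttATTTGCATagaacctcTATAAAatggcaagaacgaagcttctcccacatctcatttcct
H3c3, chr13:23745522-23745771: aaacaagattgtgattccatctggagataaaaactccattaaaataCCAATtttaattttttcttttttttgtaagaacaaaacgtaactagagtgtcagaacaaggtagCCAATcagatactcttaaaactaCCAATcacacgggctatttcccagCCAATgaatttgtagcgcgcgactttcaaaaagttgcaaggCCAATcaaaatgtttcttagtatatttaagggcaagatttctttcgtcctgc
H4c9, chr13:22041363-22041612: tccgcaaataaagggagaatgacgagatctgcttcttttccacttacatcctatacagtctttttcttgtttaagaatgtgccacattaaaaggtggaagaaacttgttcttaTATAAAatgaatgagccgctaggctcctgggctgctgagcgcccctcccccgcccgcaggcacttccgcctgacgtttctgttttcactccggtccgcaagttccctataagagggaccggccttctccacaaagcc

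CCAAT, on one strand or the other, stood in 4 places between H2bc13 and H2ac13, in 3 between H2ac15 and H2bc15, in 2 between H2ac8 and H2bc8 and in 5 before H3c3. The stretch before H4c9 held none and had 1 TATAAA, but its peak also covers the divergent H2ac11 and H2bc11, and every H2A and H2B promoter window searched held CCAAT. The letters shown therefore set single starts side by side and do not separate the H4c9 peak from the gained ones. Only the H2ac8 to H2bc8 stretch among those shown held the octamer, beside 1 TATAAA. The share of G and C was 34.8% before H3c3 and 49.2% before H4c9. A match is a description of the letters and does not show that a factor was bound.

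Accessibility at histone genes rose at 6 of the 29 peaks and fell at 0, in the authors' deposited table at an FDR of 0.05. Over all 99078 tested peaks 10.7% gained, and over the listed ones 16.1% gained, and the histone share was 20.7%. Chromosome 14, which holds no histone peak here, had 57.6% of its listed peaks gained, and outside it 11.8% of listed peaks gained. With 29 peaks, many of them strong promoters, the histone count is read below against other strong promoters. Losses were 1.49% of tested and 2.26% of listed peaks. The median deposited log2 fold (knockout over control) of the 29 peaks was 0.37, or 1.29-fold, against 0.49 over all listed peaks. A positive fold was found at 27 of the 29 peaks, and the values ran from -1.15 to 1.96. Of the gained peaks, 4 were at promoters with folds between 0.41 and 0.51, and 2 were intergenic with larger folds.

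**Figure D1:**
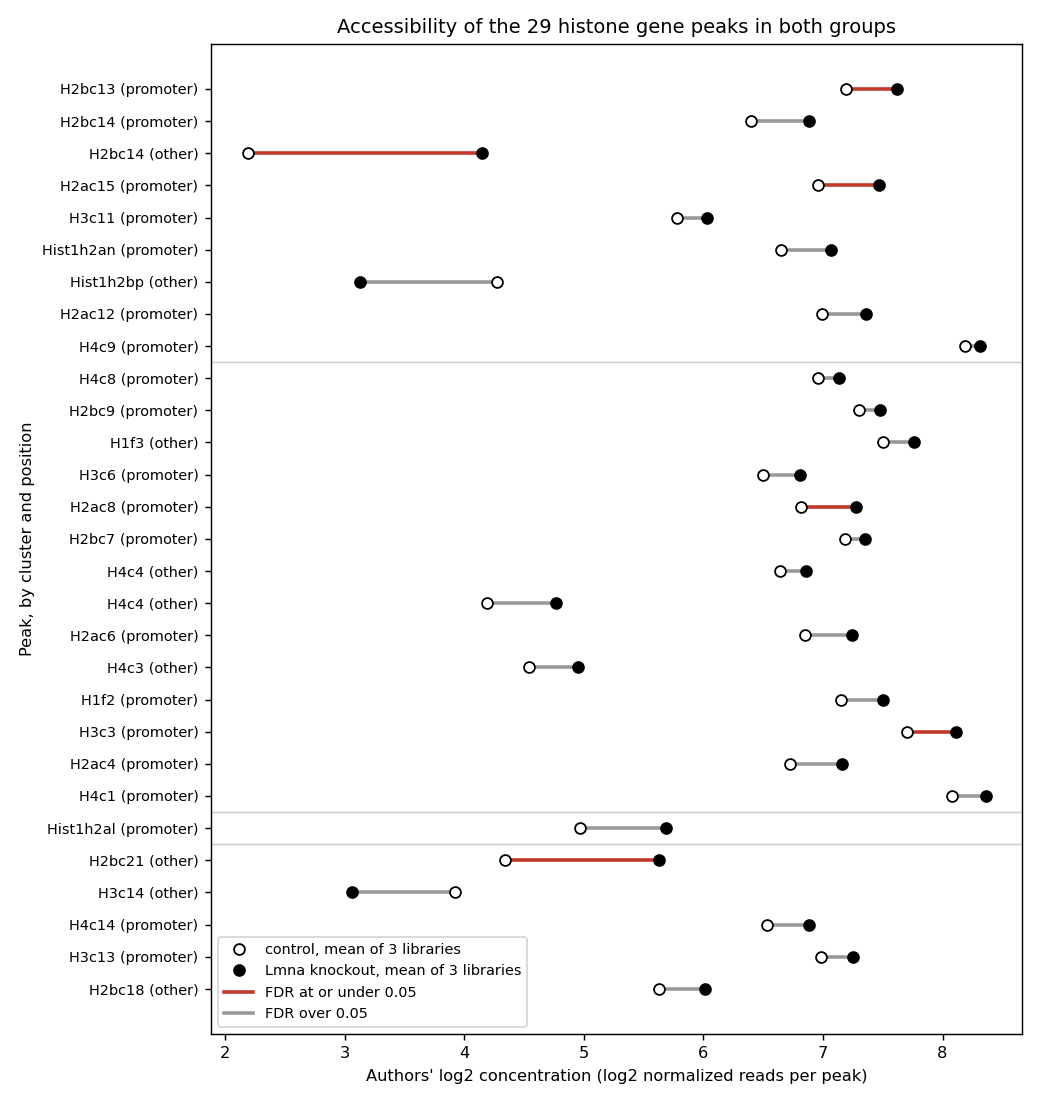
The authors' log2 concentration (normalized reads per peak, group mean of 3 libraries) of the 29 histone peaks, in order along each cluster, with open points for control, filled points for knockout cells and red lines for an FDR of 0.05 or less. The knockout mean was the higher one at 27 peaks, by 0.12 to 0.72 at every promoter peak, and the gaps of over 1 were at the distal H2bc14 and H2bc21 peaks (gained) and at the Hist1h2bp peak (lower, not passing).

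The 4 gained promoter peaks were all on chromosome 13, at H2bc13, H2ac15, H2ac8 and H3c3, and each covered the starts of at least 2 histone genes. Levels are the authors' log2 concentrations, and standard errors (SE) were worked out from each fold and its deposited p, taking the test as normal. The H3c3 peak, chr13:23744920-23747387, had the smallest FDR of them: its deposited level was 7.70 in control and 8.11 in knockout cells, a log2 fold of 0.41 ± 0.13 (SE) with an FDR of 0.0167. It also covers the start of H2bc3, and H3c3 encodes a core histone H3.

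At the H2ac15 and H2bc15 pair, chr13:21753341-21754796, the deposited level was 6.96 in control and 7.47 in knockout cells, a log2 fold of 0.51 ± 0.16 (FDR 0.0219). This was the highest fold among histone promoters of the clusters, and the peak contains the stretch between both starts printed above. The pair H2ac8 and H2bc8, chr13:23570826-23571963, went from a deposited 6.82 to 7.28, a fold of 0.47 ± 0.16 (FDR 0.0339). The peak named for H2bc13, chr13:21715684-21718056, covers H2bc13, H2ac13 and H3c10, which encode H2B, H2A and H3. Its deposited level was 7.19 in control and 7.62 in knockout cells, a log2 fold of 0.43 ± 0.15 (FDR 0.0438). All 4 gains were thus below 1.5-fold, the highest being 1.42-fold.

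The other 16 promoter peaks (within 1 kb of a start in the deposited annotation) did not pass, and their deposited log2 folds ran from 0.12 to 0.72 with a median of 0.33. Nearest to the threshold were H2bc14 (0.48 ± 0.18, FDR 0.0632) and Hist1h2al (0.72 ± 0.27, FDR 0.064), in the same table. Hist1h2al lies alone at chr13:51202228-51204464, far from the clusters, and RefSeq lists it as a transcribed pseudogene, H2af-ps2. It had the lowest deposited mean concentration of the histone promoters, 5.37. At the other end stood H4c9, chr13:22040559-22044355, a broad peak that also covers H2ac11 and H2bc11. Its deposited level was 8.19 in control and 8.31 in knockout cells, a fold of 0.12 (implied 95% interval -0.10 to 0.34, FDR 0.513), the smallest of the histone promoters. The second broad peak, chr13:23760235-23764436, covers the starts of H4c1 and H1f1 and contains the gene H3c1. It had a deposited fold of 0.27 ± 0.11 (FDR 0.0978).

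Core histone promoters that did not pass lay close to those that did. Among H2A genes the deposited log2 folds were 0.44 at H2ac4 (FDR 0.0926), 0.43 at Hist1h2an (FDR 0.109), 0.39 at H2ac6 (FDR 0.117) and 0.37 at H2ac12 (FDR 0.146). The H2B promoters H2bc9 and H2bc7 had lower deposited folds, 0.19 (FDR 0.478) and 0.17 (FDR 0.471). These peaks are not of H2B genes alone: the H2bc7 peak also covers H2ac7 and H3c4, and the H2bc9 peak contains the gene H3c7. Of the H3 promoters that did not pass on chromosome 13, H3c6 had a deposited fold of 0.31 (FDR 0.276) and H3c11 one of 0.25 (FDR 0.504). The standard errors of these folds exceed most of the gaps between them, so their order is not resolved.

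Among the histone peaks matched by name, no gained one held the start of a linker histone H1 or core histone H4 gene. The starts placed in these peaks were few, 3 of H1 and 3 of H4 genes, and those of H4c1 and H1f1 share a peak. Of listed promoter peaks with a mean log2 concentration of 6 or more, 19.4% gained. With so few peaks, the absence of a gain is no result about H1 or H4 genes. An H4 gene whose name the pattern does not match had a gained promoter and is described below. The H1f2 promoter had a deposited log2 fold of 0.36 ± 0.15 (FDR 0.107), at 7.15 in control and 7.50 in knockout cells. At H1f3 the fold was 0.26 ± 0.13 (FDR 0.193) in that table. Its peak is annotated there as 1 to 2 kb from a transcript start but contains the RefSeq start of the gene. H4c8 had a deposited fold of 0.17 ± 0.16 (FDR 0.519). A fold that did not pass does not show that a promoter stayed the same.

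Per kilobase of peak, histone promoters were among the more open ones. The mean log2 concentration per kilobase had a median of 6.28 over the 20 histone promoter peaks, against 5.39 over all 12489 listed promoter peaks. Of the 20, H1f2 was the highest, at 6.93, followed by H2ac8 at 6.88 and H2ac12 at 6.77, levels that carry no error of their own here. H1f2 ranked above 98.3% of listed promoters and Hist1h2al, at 4.21, above 8.38%. The other 18 ranked above 64.8% to 98.0% of them.

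Set beside other strong promoters, histone promoters changed by a like amount. Of listed promoter peaks with a mean log2 concentration of 6 or more, 19.4% gained in the deposited table (936 of 4827), or 17.8% outside chromosome 14, and of the 18 histone promoters at that strength 4 did (22.2%). Their median deposited log2 folds were 0.38 and 0.37 (0.365 for the histone promoters before rounding), and the histone folds spanned 0.12 to 0.51. Among the 4827 peaks 97.4% had a positive fold, so the positive fold of all 18 histone promoters is near what strong promoters showed in general. The 18 histone promoters were the stronger set, with a median concentration of 7.155 against 6.5 for the 4827. The share that gained was higher among stronger promoters. Outside chromosome 14 it was 13.6% of listed promoter peaks with a concentration of 6 to 6.5. At 7 to 7.5 it was 29.6% of 609 peaks, whose median fold was 0.37.

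**Figure D2:**
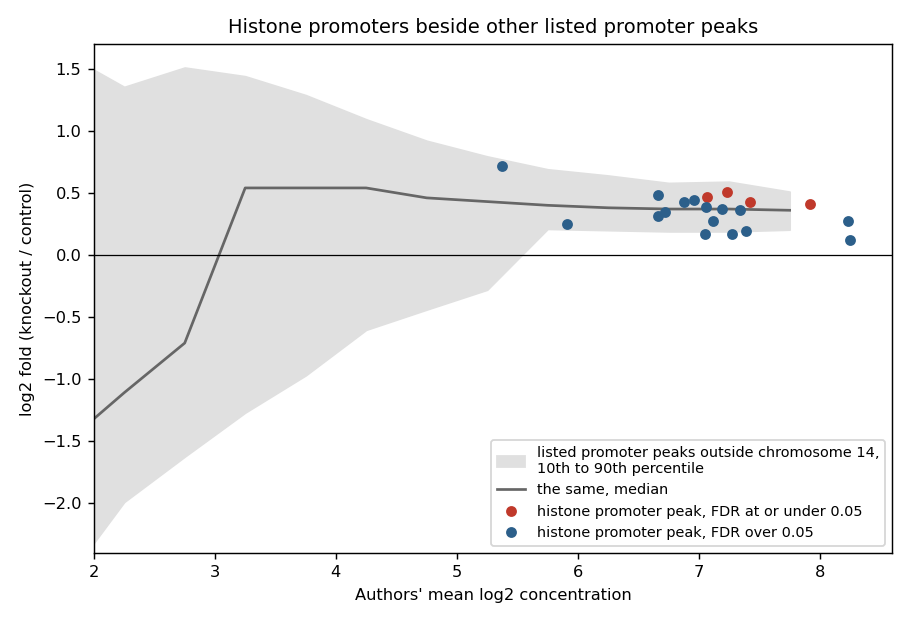
Deposited log2 fold against the authors' mean log2 concentration for the 20 histone promoter peaks (points, red for an FDR of 0.05 or less), with the median (line) and the 10th to 90th percentile (grey) of listed promoter peaks outside chromosome 14 in steps of 0.5 that hold at least 20 peaks. Most histone promoters lie inside the grey band around 0.37, and the broad H4c9 and H4c1 peaks at concentrations of 8.25 and 8.23 have folds of 0.12 and 0.27, where too few promoters remain for a band.

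Larger changes were found between genes. The peak assigned to H2bc21, chr3:96226870-96227767, lies outside any RefSeq gene, 3132 bases from the end of H2bc21 and 10712 from H3c15, both of which encode core histones. Its deposited level was 4.34 in control and 5.63 in knockout cells, a log2 fold of 1.29 ± 0.31, or 2.45-fold. With an FDR of 0.00103 it was the one histone peak that also passed at 0.01.

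A second intergenic gain, chr13:21728029-21729038, lies between H2bc14 and H4c11, 5503 and 5996 bases away. This was a weak site, with a deposited level of 2.19 in control and 4.15 in knockout cells, a fold of 1.96 ± 0.66 (FDR 0.0319). Of all listed distal intergenic peaks 18.2% gained, with a median deposited fold of 0.55.

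Lower accessibility in knockout cells was listed at 2 histone peaks, and neither passed. At chr13:21790566-21790780, inside RefSeq's H2bc22 (Hist1h2bp in the table), the deposited level was 4.27 in control and 3.13 in knockout cells, a log2 fold of -1.15 ± 0.52 (FDR 0.131). The other, chr3:96254826-96255154, is assigned to H3c14 but overlaps the lncRNA Gm20627 in RefSeq. It had a deposited fold of -0.86 ± 0.54 (FDR 0.305). The remaining histone peaks outside the promoter class had deposited folds between 0.22 and 0.58, none passing. One of these, assigned to H4c4, chr13:23585303-23586812, covers a start of H2bc6.

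By chromosome, 5 of 24 histone peaks gained on chromosome 13 and 1 of 5 on chromosome 3, with median deposited log2 folds of 0.38 and 0.35. Over all listed peaks of chromosomes 13 and 3 the gained shares were 10.3% and 11.3% and the medians 0.42 and 0.40. With 5 peaks the share on chromosome 3 is imprecise, and no test between chromosomes was made. Member peaks more than 500000 bases apart were placed in separate clusters. Chromosome 13 then held a first cluster, chr13:21715684-22044355, with 9 peaks, a second, chr13:23530396-23764436, with 14, and the lone Hist1h2al peak.

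The first cluster had 3 gained peaks of 9 and the second 2 of 14. Over promoter peaks the median deposited fold was 0.43 in the first (7 peaks, 0.12 to 0.51) and 0.34 in the second (10 peaks, 0.17 to 0.47), ranges that overlap almost fully. The 2 promoter peaks on chromosome 3, at H4c14 and H3c13, had deposited folds of 0.35 and 0.27 and did not pass. H4c14 encodes H4 and H3c13 encodes H3. A promoter peak just outside this cluster, chr3:96219532-96221760, is assigned to Bola1 but contains the starts of H2ac21 and H2ac20, and its deposited fold was 0.42 (FDR 0.0661).

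Other genes lie between the histone genes of the first cluster, among them Zfp184, a zinc finger gene, and Prss16, a serine protease gene. The 8 listed peaks assigned to such genes within its span had deposited log2 folds of -0.40 to 0.52 with a median of 0.19, 5 of them positive, and none passed. Their median concentration was 6.38 against 6.88 for the 9 histone peaks of that cluster, whose median fold was 0.43. The groups of folds overlap, and the difference was not tested. Within the second cluster's span 1 peak of another gene was listed, a weak one assigned to Hfe, with a deposited fold of -0.57 (FDR 0.607).

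**Figure D3:**
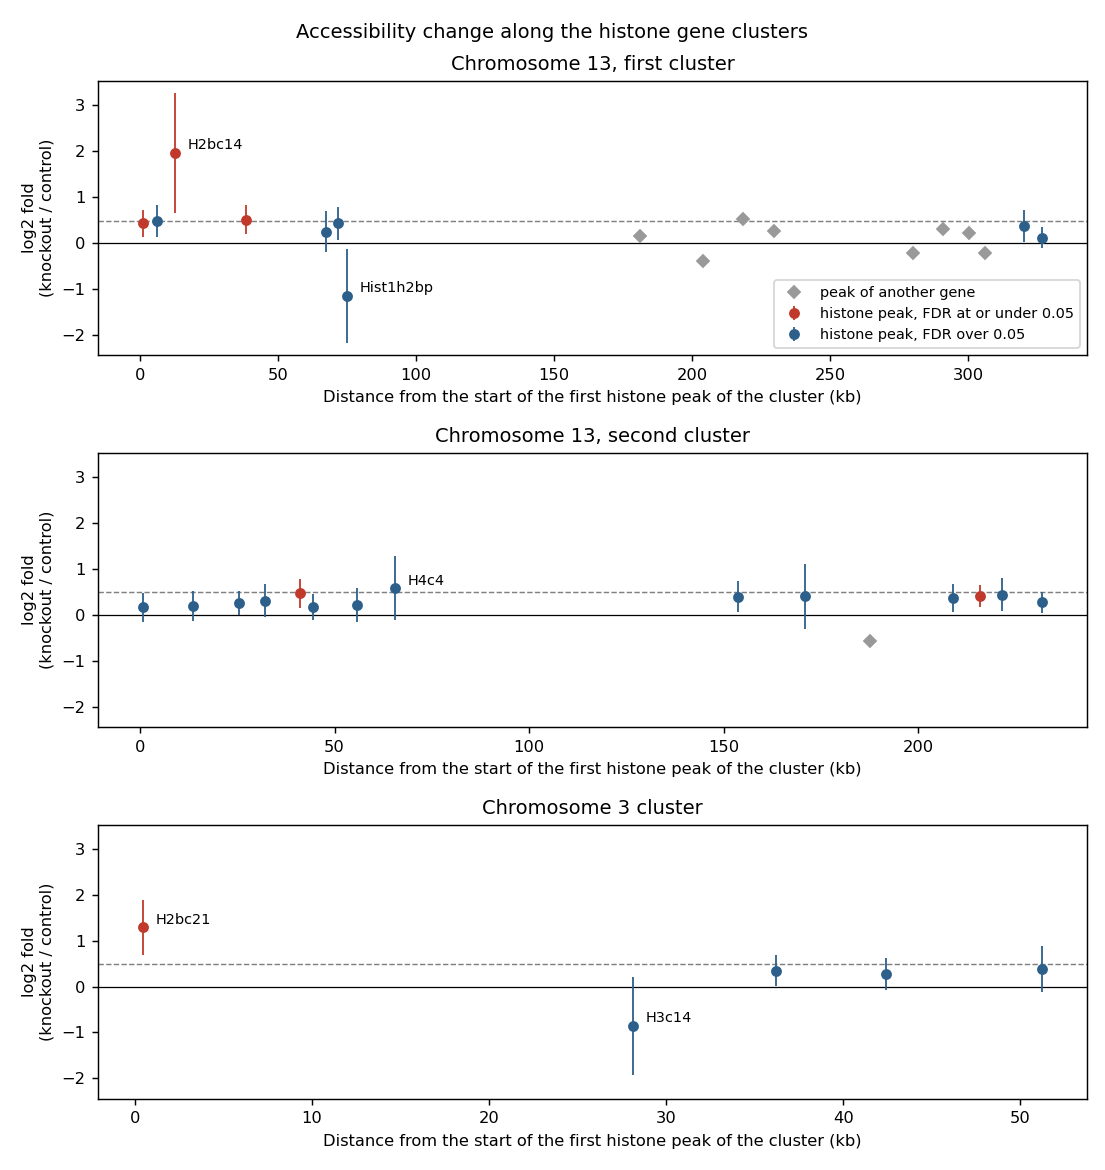
Deposited log2 fold of each histone peak (circles, red for an FDR of 0.05 or less, with 95% intervals derived from fold and p) and of peaks of other genes inside the span (grey diamonds) against the distance in kb from the start of the first histone peak of each cluster. The dashed line is the median of all listed peaks, 0.49. Histone peaks lie mostly between 0 and this line, with the intergenic gains at H2bc14 (1.96) and H2bc21 (1.29) above it.

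A peak is named for 1 gene but can cover several, so the starts of RefSeq histone genes were also placed in the peaks. Of 64 protein-coding histone genes within 250000 bases of the spans on chromosomes 13 and 3, 59 had a start in the promoter table, and 36 of these lay in 21 listed peaks. Those without an entry were H3c7, H2bc4, H3c1, H2bc21 and H4c14. Gained peaks held 9 starts: 4 of H2B, 3 of H2A and 2 of H3 genes. These starts lay in the 4 gained promoter peaks, so the split by type follows which genes share a peak. Of all listed promoter peaks with a concentration of 6 or more, 19.4% gained, and the split is not a result about types. A listed peak covered 12 of 15 H2B, 11 of 17 H2A, 7 of 10 H3, 3 of 6 H1 and 3 of 11 H4 starts. A start in no listed peak had either no peak or one with a p above 0.422, so nothing is said of its change. Among the starts in listed peaks the median deposited fold was 0.42 for H2A, 0.39 for H2B, 0.31 for H3, 0.27 for H1 and 0.17 for H4, with overlapping ranges. Starts that share a peak share its value, so these medians are not independent.

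**Figure D4:**
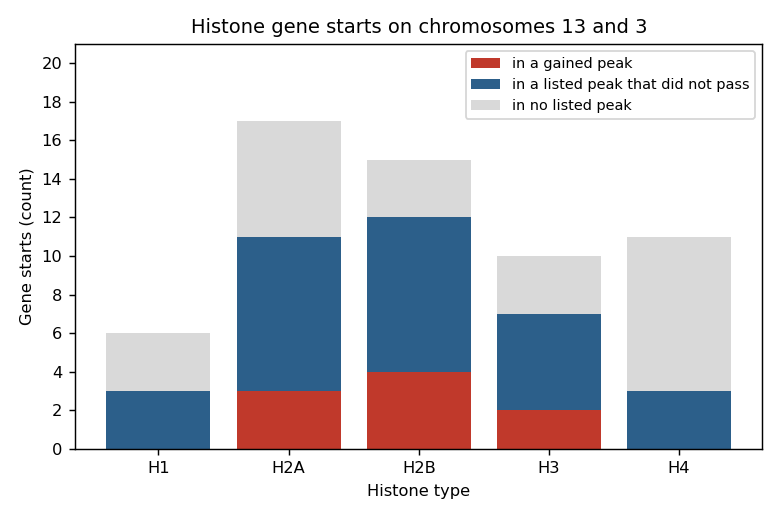
Number of RefSeq histone gene starts on chromosomes 13 and 3 by histone type, split into starts in a gained peak (red), in a listed peak that did not pass (blue) and in no listed peak (grey). H2B had 12 of 15 starts in a listed peak and H4 had 3 of 11. The 9 starts in gained peaks were those of H2A, H2B and H3 genes and lay in only 4 peaks.

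Of the 20 histone promoter peaks, 7 held both starts of a divergent pair, counted over genes with a start in the promoter table. Among these genes were 10 pairs of an H2A and an H2B gene facing away from each other, with 163 to 280 bases between their starts. Genes without an entry could not be paired, so pairs may be missing. Such genes include H2bc4, which lies next to H2ac6, and H2bc21, which lies next to H2ac20. In 7 pairs both starts lay in 1 listed peak, with a median deposited fold of 0.43 (0.12 to 0.51) against 0.37 (0.365) over all 20. Of these 7 peaks 3 gained (H2bc13 with H2ac13, H2ac15 with H2bc15, and H2ac8 with H2bc8). Their concentrations ran from 6.88 to 8.25. Of all listed promoter peaks with a concentration of 6 or more 19.4% gained. At 7 to 7.5, outside chromosome 14, the share was 29.6%. With so few peaks this is no trait of pairs, and no test between forms was made. The 2 genes of such a pair share a peak and cannot be told apart.

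In the 300-base windows around these starts, histone promoters held known motifs more often than all 32851 RefSeq promoter windows did. CCAAT was present in 51 of 59 histone windows (86.4%) against 37.4% of all windows, in every H1, H2A, H2B and H3 window but in 3 of 11 H4 windows. TATAAA was in 57.6% against 13.6%. The octamer ATTTGCAT, known from H2B promoters, was in 22% against 1.74%, in 7 of 15 H2B and 6 of 17 H2A windows, which overlap in divergent pairs. AAACACA was in 5 of 6 H1 windows against 7.18% of all. E2F sites were in 9 histone windows, all of H2A or H2B genes (15.3% against 0.813%). Among the 9 starts in gained peaks, 9 windows held CCAAT, 6 held TATAAA, 3 held the octamer and 0 held an E2F site. The windows run 50 bases past a start and, in close pairs, into the partner gene. No TATAAA stood between H2bc13 and H2ac13, between H2ac15 and H2bc15 or before H3c3. Some of the 6 windows therefore held it only in letters that reach past a start, where it is not a TATA box by position. In the 36 starts in listed peaks the counts were 34, 23, 11 and 8.

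Histone genes of the smaller clusters carry names that the pattern does not match. On chromosome 6, the H4f16 promoter (Hist4h4), chr6:136803608-136804706, gained: its deposited level was 7.15 in control and 7.62 in knockout cells, a log2 fold of 0.47 ± 0.15 (FDR 0.0166). It encodes H4 and is the one H4 promoter that gained, a promoter chosen after its value was seen. Next to it H2afj, a variant H2A gene, had a deposited fold of 0.30 (FDR 0.38). On chromosome 11, H2aw had 0.24 (FDR 0.447) and H3f4, an H3 gene, 0.59 (FDR 0.433) in that table.

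The matched peaks that are not of histone genes had deposited folds of 0.37 to 1.00 at H13, which encodes a signal peptide peptidase, and 0.69 at H19. None passed, and the smallest FDR was 0.0637.

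Genes that act on histone transcripts were compared next. Of 23 genes for histone transcription and 3' end processing, 19 had a listed peak, and 8 had a gained and 0 a lost one. That was 9 of 44 peaks, or 20.5%, against 16.1% of all listed peaks and 11.8% of those outside chromosome 14. The median deposited fold of the list was 0.44. Relative to the median of all listed folds, in the retest described below, the list instead had 0 gained and 6 lost peaks. Eri1, an exonuclease that trims histone mRNA ends, gained at the promoter, where the deposited log2 fold was 0.74 ± 0.22 (FDR 0.0117). Casp8ap2 (FLASH), which acts in 3' end cleavage, gained likewise (deposited fold 0.73, FDR 0.0178), as did the cell cycle factor E2f1 (0.63, FDR 0.0228). Ccne1, or cyclin E, which activates CDK2 at entry to S phase, gained at a promoter peak (0.67, FDR 0.0151). Another Ccne1 promoter peak had a deposited fold of -1 and did not pass (FDR 0.078). It was lost in the retest (centred -1.49, adjusted p = 0.00698). Pou2f1, which encodes Oct-1, gained a weak intronic peak, from a deposited level of 0.35 in control to 3.39 in knockout cells (fold 3.04 ± 0.90, FDR 0.0112). Its promoter peak gained too (0.45, FDR 0.0306). The Pou2f1 peaks with negative deposited folds did not pass but were lost in the retest (centred -1.88, -1.74 and -2.46), as were peaks of E2f1 and Yy1. Its remaining peaks had positive folds that did not pass. Yy1 gained an intergenic peak as deposited (0.68, FDR 0.0227). Npat, the coactivator of the clusters, had its listed peak in exon 17 of 18 and not at a promoter. The deposited fold there was 1.04 ± 0.40 and did not pass (FDR 0.0676). Slbp, the stem-loop binding protein, had 0.19 at its stronger peak (FDR 0.491).

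Of 12 replacement histone genes, which are expressed outside S phase too, 8 had a listed peak, 3 a gained and 0 a lost one. That was 4 of 22 peaks, or 18.2%, against 16.1% of all listed peaks and 11.8% of those outside chromosome 14. In the retest relative to the median fold, described below, the list had 0 gained and 2 lost peaks. Macroh2a1, a variant with a large extra domain, gained an intergenic and an intronic peak (deposited log2 folds 0.92, FDR 0.00159, and 1.45, FDR 0.00337). H3f3a, which encodes H3.3, gained an intergenic peak (0.81, FDR 0.0232), and H2afx, the variant phosphorylated at DNA breaks, gained at its promoter (0.48, FDR 0.0296), both as deposited.

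Of 22 histone chaperone genes, 17 had a listed peak, 6 a gained and 0 a lost one. That was 6 of 44 peaks, or 13.6%, against 16.1% of all listed peaks and 11.8% of those outside chromosome 14. The gains named are single peaks and not a result about chaperones as a group. The same retest left 1 gained and 1 lost peak. Cabin1, a partner of HIRA, had the largest deposited fold among them, 2.72 ± 0.61 at an intronic peak (FDR 0.000356), from 1.64 in control to 4.36 in knockout cells. Nap1l1, a chaperone of H2A and H2B, gained an intergenic peak (deposited fold 1.02, FDR 0.000103), as did Hira, the H3.3 chaperone (1.42, FDR 0.0191). Mcm2, a helicase subunit that also binds H3 and H4, gained in its 3' UTR (1.40, FDR 0.00462). Chaf1a, of the chaperone CAF-1, gained at its promoter (0.75, FDR 0.0155), as did Ubn2 (0.51, FDR 0.0175), both as deposited.

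The zero of the folds bears on each of these counts. Because the middle of the listed folds lay at 0.49, folds were also taken relative to it and retested with the Benjamini-Hochberg adjustment. The listed peaks leave out those with a p above 0.422, so 0.49 may overstate the shift of the whole set. Chromosome 14 also raises it: its listed peaks had a median fold of 1.51, and those outside it 0.44. Listed promoters outside chromosome 14 with a concentration of 6 or more had a median of 0.37. Which zero is right was not tested, and the retest counts here rest on 0.49. None of the 6 histone gains held, and 2 histone peaks then passed as lower: H4c9 (centred log2 fold -0.37, adjusted p = 0.0205) and the Hist1h2bp peak (-1.64, adjusted p = 0.028). The median centred fold of the 29 histone peaks was -0.12. Of the listed peaks 4.47% passed as gained and 8.93% as lost in that retest. Among the gains named at histone processing, replacement histone and chaperone genes, Cabin1 alone held (centred 2.23, adjusted p = 0.00829).

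Other facts of the table bear on the labels and cells. Of 5 listed Lmna peaks 2 were lost, the stronger with a deposited log2 fold of -4.27 (FDR 4.44e-20), and 2 gained, 1 in the 5' UTR and 1 intergenic. Of the listed peaks at 8 embryonic stem cell marker genes 22 of 62 gained and 1 was lost. The gained share was 35.5%, against 16.1% of all listed peaks and 11.8% of those outside chromosome 14. Most of the gained peaks were at Esrrb and Tfcp2l1, and no peak of Klf4 or Sox2 passed. The pooled share is therefore not a result about these markers in general. Over the 62 peaks the median deposited log2 fold was 0.57. In the centred retest 4 gained, all at Esrrb or Tfcp2l1, and 4 were lost. At 12 fibroblast marker genes, a check of the feeder layer, 2 of 34 gained (5.88%) and 1 was lost, or 0 and 6 in that retest, with a median fold of -0.42 and a median level of 3.92 in control and 3.55 in knockout cells. Their part in the histone results was not tested. The depth per library is unknown. Histone gene copies are near-identical in their coding part, and how reads that fit several copies were counted is not given in the sources used here, so values of single genes within a cluster are uncertain to that extent.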

How the data were processed

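ATAC-seq of 3 control and 3 Lmna knockout libraries was analysed from the authors' comparison of the groups. Per the submitters' processing notes, tools included MACS2, DiffBind with DESeq2, ChIPseeker, Bowtie2, Trimmomatic 0.39, Picard 1.119 and bedtools 2.28.0, on mm10. Their settings were not given in the sources used here. The log2 concentrations and log2 folds are as deposited by the authors, and each fold is knockout minus control to within 0.01. The p-values and FDR are those the authors deposited. Distances and annotation classes are the deposited ones, with 1-based mm10 coordinates. The FDR implied 99078 tested peaks, so 33543 with p above 0.422 are not analysed here.

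Gains and losses are peaks at an FDR of 0.05 or less. Standard errors were derived from fold and p under a normal test, which is approximate with 3 libraries a group. The centred retest subtracts 0.49 and keeps peaks not listed at a p of 1. It was tried on simulated data in which every peak was listed and the shift was known. The effect of the unlisted peaks on the retest was therefore not tested. RefSeq tables of GRCm38.p6 gave gene starts and promoter windows (250 bases before to 50 after a start). Members and lists were chosen with earlier results of these data known. Named were all gained or lost members, the highest and the extreme folds of each cluster, the best promoter peak of each histone type, and up to 6 passing peaks of each related list. One marker list per cell type was also fixed. The tools were SciPy 1.17.1, pandas 2.3.3, numpy 2.4.6 and, for plots, matplotlib 3.10.9, under Python 3.11.15.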

Additional observations from a re-analysis of the deposited data

How the results depend on the processing

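The counts over all 34 matched peaks were 6 gained and 0 lost, with 4 gained at promoters. At an FDR of 0.01 they held 1 gained peak, 0 at promoters and 0 on chromosome 13. Requiring also a log2 fold of 1 or more in size, there were 2 gained peaks, 0 at promoters and 1 on chromosome 13. Centring and retesting left 0 gained peaks in all, at promoters and on chromosomes 13 and 3, and gave 2 lost peaks, 1 at a promoter. It turned the median log2 fold from 0.38 (0.375) to -0.12 (-0.115). The 3 peaks still named Hist1h held 0 gained ones in all, at promoters and on chromosome 13, with a median of 0.43. Within 3000 bases of a start chromosome 3 had 0 gained peaks and the median was 0.37. Every peak inside the spans gave a median of 0.31 (0.305). Settings chosen after seeing the data were leaving out H13 and H19, with a median of 0.37, and adding the histone names of chromosomes 6 and 11, with a median of 0.37 and 1 gained peak on chromosome 6. The other counts were within 1.5 times the main ones. No paired analysis was possible because only means per group were used. Refits with edgeR or DESeq2, and fits that leave out a replicate, were not run for the same reason. Peaks with a p above 0.422 were not listed, so a weak peak had to change much to be listed and medians leave out small changes. On chromosomes 11 and 6 the rule found no peak, so counts inside their spans could not be had.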
